A study of Mus musculus with 12 samples.

Results

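The respiratory chain of the mouse was examined through 109 genes, among 27179 in the count table. The members were the rows whose Entrez identifier maps to a protein-coding gene named as a subunit or Nduf-type assembly factor of complexes I to V, plus Cycs and the 13 protein genes of the mitochondrial genome. They fell into 13 mitochondrially encoded subunits, 88 nuclear genes for subunits (38 of complex I, 4 of complex II, 8 of complex III, 20 of complex IV, 17 of complex V and 1 for cytochrome c) and 8 complex I assembly factors, Ndufaf1 to Ndufaf8. The 88 include 11 paralogs or gene copies, among them Ndufb4b, Ndufb4c and Cox7a2l. The rule picked genes by name, not by measured value, but it was set with earlier results of these data known.

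The cells were T-cell acute lymphoblastic leukemia (T-ALL) of a single primary leukemia, ALL101, carrying Vav-tTA and TRE-GFP-shIkaros, and were sorted from the spleens of recipient mice. The Vav promoter drives the transactivator tTA in blood cells, and tTA switches on a GFP-linked hairpin that targets Ikzf1, the gene of the lymphoid transcription factor Ikaros. In the doxycycline group, 3 mice had received the drug for 3 days, which shuts off the hairpin, and GFPmid cells were sorted. In the untreated group, 3 mice received none and GFPhigh cells were sorted. The leukemia cells of both groups carried the same transgenes, and no hairpin-free cells were given the drug. Restored Ikaros, the GFP gate and doxycycline itself, an antibiotic known to inhibit protein synthesis on mitochondrial ribosomes, cannot be told apart in this design. Each RNA was sequenced in 2 runs, summed here, and the totals were 33899095 to 44949303 counts per doxycycline mouse, against 29904744 to 33063390 per untreated mouse. The library name of untreated mouse 3 lacks the GFP sort that the names of the other 5 carry, so results that turn on that mouse are also given without it. Since all mice carried 1 leukemia, the spread between mice is not a spread between leukemias.

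Oxidative phosphorylation couples electron flow to ATP synthesis in the inner mitochondrial membrane. Complex I takes electrons from NADH and complex II from succinate, coenzyme Q carries them to complex III and cytochrome c onward to complex IV, where oxygen is reduced. Complexes I, III and IV pump protons, and complex V, the ATP synthase, uses their return. Complex II is built from nuclear genes alone, whereas the other complexes combine nuclear subunits with subunits made inside the mitochondrion, so their RNA comes from separate genomes with separate polymerases. T cells are known to raise respiratory capacity on activation, and Myc and the coactivators of the PGC-1 family are known to favour these genes.

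Ikzf1 had 1438, 1523 and 1495 CPM (counts relative to the library total, scaled by TMM) in the doxycycline mice, against 153, 149.7 and 159 CPM in the untreated mice, in the direction of the labels. T-cell markers (Cd3d, Cd3e, Cd2, Lck and Thy1, 5 of 5 detected) summed to 4397 to 4598 CPM in doxycycline mice and 3858 to 3948 CPM in untreated mice. B-cell markers summed to at most 0.821 CPM in doxycycline mice and 0.663 CPM in untreated mice, and natural killer and platelet markers stayed under 1 CPM in each group. The 4 erythroid genes Hba-a1, Hba-a2, Hbb-bs and Alas2 summed to 59.0 to 71.1 CPM in doxycycline mice and 4.04 to 41.6 CPM in untreated mice, where untreated mouse 3 held the 41.6. The 8 myeloid markers summed to 63.1 to 84.1 CPM in doxycycline mice and 22.6 to 42.7 CPM in untreated mice, but single markers differed in direction. Itgam (37.8 to 48.3 CPM in doxycycline mice and 9.09 to 10.7 CPM in untreated mice), Csf1r and Adgre1 were higher in every doxycycline mouse. S100a8 (1.15 to 1.65 CPM in doxycycline mice and 2.56 to 5.12 CPM in untreated mice), S100a9 and Mpo were lower in every doxycycline mouse, and Lyz2 and Elane overlapped. The 4 stromal and endothelial markers summed to 336 to 350.0 CPM in doxycycline mice and 233 to 262 CPM in untreated mice, mostly Pecam1 and Col1a2, with Cdh5 at most 0.0588 CPM in doxycycline mice and 0.369 CPM in untreated mice. The part of other cells in the results below was not tested.

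RNA of the mitochondrial genome was higher after doxycycline and much of the nuclear part was lower. Each of the 13 mitochondrial genes rose (log2 fold changes of 0.41 to 0.85, median 0.64), whereas 46 of the 83 tested nuclear subunit genes fell, 1 rose and 36 did not pass (median -0.25). These calls are edgeR quasi-likelihood tests with Benjamini-Hochberg adjusted p under 0.05 over 13134 tested genes. Of all tested genes, 24.8% were called higher and 25.2% lower, with a median log2 fold change of -0.0037. The mitochondrial count lay far above that background and the nuclear count of falls above it. That background was not matched for expression level. Of nuclear subunit genes over 20 CPM on average, 39 of 64 fell, with a median log2 fold change of -0.24 over the 64. At or below 20 CPM, 7 of 19 tested genes fell, with a median of -0.38. The part of expression level in these counts was not tested. The 13 mitochondrial genes lie on shared transcripts of 1 genome, so they are not 13 independent observations. The sizes of the nuclear falls were small: the 46 called genes had a median log2 fold change of -0.32, against -0.53 for all genes called lower. The 13 mitochondrial rises had a median of 0.64, against 0.68 for all genes called higher. In bulk RNA, fewer cells with a transcript and less transcript per cell cannot be told apart.

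As shares of all counts, the 13 mitochondrial genes took 2.16%, 2.36% and 2.07% in doxycycline mice, against 1.27%, 1.37% and 1.56% in untreated mice. The nuclear subunit genes took 1.04%, 1.07% and 1.12% in doxycycline mice, against 1.27%, 1.27% and 1.26% in untreated mice. Neither share overlapped between the groups. On a length-scaled level (TPM, the counts divided by the deposited gene length and scaled to the same sum in every mouse), summed mitochondrial RNA was 1.65, 1.75 and 1.48 times the summed nuclear member RNA in doxycycline mice, against 0.816, 0.869 and 0.997 times in untreated mice. The ratio averaged 1.63 ± 0.134 in doxycycline mice and 0.894 ± 0.0933 in untreated mice (SD, n = 3 each). By complex, the summed mitochondrial TPM in doxycycline mice was 1.51 times that in untreated mice for complex I, 1.66 times for complex III, 1.63 times for complex IV and 1.59 times for complex V. The summed nuclear TPM, with the assembly factors under complex I, was 0.887 times that of untreated mice for complex I, 0.852 for II, 0.848 for III, 0.896 for IV and 0.83 for V.

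**Figure D1:**
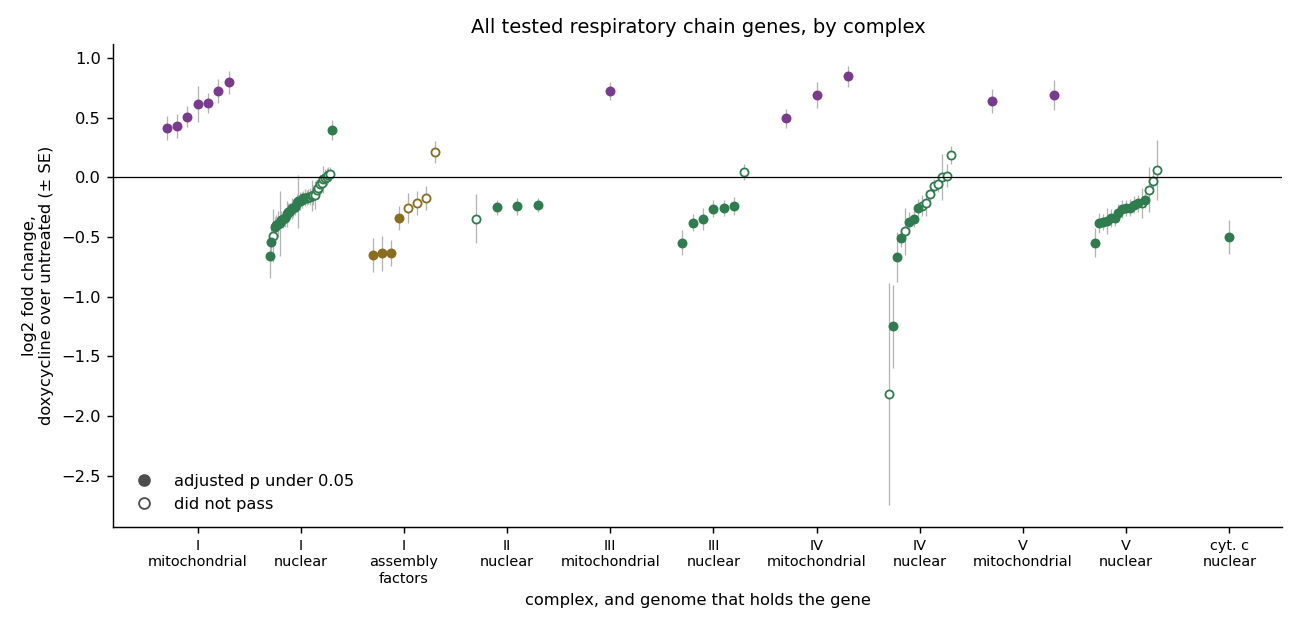
Log2 fold change (doxycycline over untreated, ± SE, 3 mice each) of the 104 tested members, by complex and by the genome that holds the gene; filled points passed an adjusted p of 0.05 in edgeR. All 13 mitochondrial points lie above 0 and most nuclear points between -0.66 and 0.

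Complex I holds 7 mitochondrial subunits, all of its proton-pumping membrane arm. mt-Nd5 had 3158, 3452 and 2925 CPM in doxycycline mice, against 1719, 1875 and 2169 CPM in untreated mice, a log2 fold change of 0.73 ± 0.10 (SE, edgeR adjusted p = 0.000747). mt-Nd6, the only protein gene on the other strand of the mitochondrial genome, had 960.2, 1018 and 830.4 CPM in doxycycline mice, against 506, 522 and 589 CPM in untreated mice (0.80 ± 0.09, edgeR adjusted p = 0.000373). Every doxycycline mouse exceeded every untreated mouse for both genes. mt-Nd4 (0.63 ± 0.08) and mt-Nd4l (0.62 ± 0.15) lay in the middle of the complex. mt-Nd2 (0.51 ± 0.09), mt-Nd1 (0.43 ± 0.10) and mt-Nd3 (0.41 ± 0.10) rose least, with edgeR adjusted p of 0.00176, 0.00801 and 0.0107. For mt-Nd1 the values were 2736, 3261 and 3161 CPM in doxycycline mice, against 2127, 2114 and 2559.6 CPM in untreated mice. mt-Nd3 was the sole mitochondrial gene that lost its call in any alternative run, at 0.35 (edgeR adjusted p = 0.058) without untreated mouse 2.

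mt-Cytb encodes cytochrome b, the only complex III subunit of the mitochondrial genome. It had 4210.2, 4226 and 4091 CPM in doxycycline mice, against 2338, 2519 and 2740.3 CPM in untreated mice (0.72 ± 0.08, edgeR adjusted p = 0.000223). The doxycycline mice lay within a narrow band that was well clear of the untreated mice. mt-Co1 and mt-Co2 encode the subunits of cytochrome c oxidase that hold its heme and copper centres. mt-Co1 had 7065, 8254 and 6487 CPM in doxycycline mice, against 4071, 4446 and 5000.5 CPM in untreated mice (0.69 ± 0.11, edgeR adjusted p = 0.00132). mt-Co2 rose most of the 13, with 100.8, 104 and 98.0 CPM in doxycycline mice, against 49.9, 56.7 and 62.2 CPM in untreated mice (0.85 ± 0.09, edgeR adjusted p = 0.000223). The groups were apart for both genes, with untreated mouse 3 nearest the doxycycline mice. mt-Co3, the third catalytic-core subunit, had 142, 147 and 127 CPM in doxycycline mice and 91.5, 102 and 101.4 CPM in untreated mice (0.50 ± 0.08, edgeR adjusted p = 0.00138). The proton-channel subunit of the ATP synthase, mt-Atp6, had 147, 145 and 146 CPM in doxycycline mice, against 79.2, 94.9 and 106 CPM in untreated mice (0.64 ± 0.10, edgeR adjusted p = 0.00124). The doxycycline mice were nearly equal at mt-Atp6 and the untreated mice spread more widely. Its neighbour mt-Atp8 averaged 12.9 ± 0.711 CPM in doxycycline mice and 7.97 ± 0.891 CPM in untreated mice (0.69 ± 0.12, edgeR adjusted p = 0.00236, n = 3 each). None of the 13 genes overlapped between groups, a separation in the same direction that 30.2% of all tested genes showed. The ribosomal RNAs of the same genome, which are not members, also rose: mt-Rnr1 by 0.87 ± 0.14 and mt-Rnr2 by 0.86 ± 0.17 (edgeR adjusted p = 0.00195 and 0.00634).

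**Figure D2:**
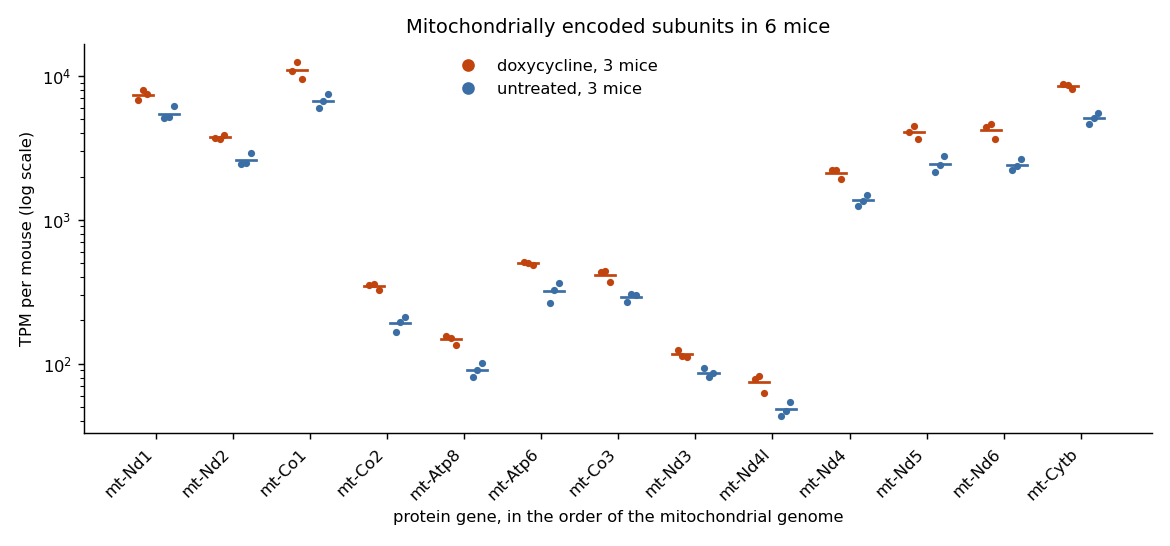
Level of each mitochondrially encoded gene in TPM per mouse (log axis; points are mice, lines group means), doxycycline left of untreated, in genome order. The groups are apart at all 13 genes, and mt-Co2 to mt-Nd4l sit far below the genes on either side of them.

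The mice within a group kept an order across these genes. Doxycycline mouse 2 was the highest of its group for 9 of 13 genes and doxycycline mouse 3 the lowest for 9. Untreated mouse 3 was the highest of its group for 11 of 13 genes and untreated mouse 1 the lowest for 10. Untreated mouse 3 also held the 41.6 CPM of erythroid markers, against 8.01 and 4.04 CPM in untreated mice 1 and 2, and the part of those cells was not tested. Without untreated mouse 3 all 13 genes were called higher with a median of 0.74, and without untreated mouse 3 and doxycycline mouse 2 all 13 with a median of 0.68. With library totals and scaling computed without any mitochondrial gene, all 13 were called and the median was 0.65.

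Measured levels differed widely along the genome. In TPM, mt-Co1 was highest at 11011 ± 1528 in doxycycline mice and 6758 ± 742 in untreated mice, with mt-Cytb at 8534 ± 342 in doxycycline mice and 5129.5 ± 442 in untreated mice, and mt-Nd1 at 7452 ± 625 in doxycycline mice and 5488 ± 626 in untreated mice (SD, n = 3 each). In doxycycline mice mt-Cytb was above mt-Nd1 by more than their SDs, whereas in untreated mice mt-Nd1 had the higher mean and their ranges overlapped. At the bottom, mt-Nd3 had 117 ± 7.23 TPM in doxycycline mice and 86.6 ± 6.28 TPM in untreated mice and mt-Nd4l 74.5 ± 10.3 TPM in doxycycline mice and 48.1 ± 5.46 TPM in untreated mice. Several of the low genes have a copy in the nucleus. An annotated pseudogene block on chromosome 1 copies part of the mitochondrial genome, and short reads from the copied stretches would match both places. Of the 50-base windows of mt-Co2, mt-Co3, mt-Atp6, mt-Nd4l and mt-Nd3, between 98.0% and 100% occurred exactly in the transcript of another annotated gene. Those 5 genes had mean levels of 61.3 to 409 TPM over all mice, against 119 to 8884 TPM for the other 8, of which mt-Nd4 shared 62.2%, mt-Co1 51.1% and mt-Nd1, mt-Nd6, mt-Cytb and mt-Atp8 0%. Only annotated transcripts were searched, so a copy without annotation would be missed. mt-Atp8 lies between mt-Co2 and mt-Atp6, both among the copied genes, so its 0% and its place in the other 8 are uncertain. Across the 13 genes the rank correlation of shared percentage and mean TPM was -0.56, as a description of genes that lie on shared transcripts and differ in length. Reads with several matches are treated in a way not given in the sources used here, so levels of the copied genes are uncertain. The fold changes were alike in both sets, with medians of 0.62 over the 5 copied genes and 0.69 over the other 8.

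Printed below, to show how near the copies are, are the first 60 bases of mt-Co2 (chrM:7013-7696, plus strand) and of its nuclear copy Gm28661 (chr1:24614885-24615565, minus strand), which were identical over 681 of 681 aligned bases, and bases 1054 to 1113 of mt-Co1 (chrM:5328-6872, plus strand) beside the start of Gm29216 (chr1:24615706-24616197, minus strand), identical over 486 of 492 bases. Sequences are from GENCODE transcripts on GRCm38, 5′ to 3′, and capitals mark the bases that differ within a pair.
mt-Co2: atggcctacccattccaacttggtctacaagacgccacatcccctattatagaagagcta
Gm28661: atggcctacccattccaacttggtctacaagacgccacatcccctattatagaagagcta
mt-Co1: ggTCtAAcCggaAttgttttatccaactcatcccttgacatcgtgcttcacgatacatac
Gm29216: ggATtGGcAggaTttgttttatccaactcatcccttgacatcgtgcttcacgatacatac
No base differs in the first pair, so counts of mt-Co2 rest on how reads with 2 matches were handled. In the second pair all 6 differences of the copy fall at its first bases, and the 5′ part of mt-Co1 lies outside that copy. Gm29216 held 28.7% of the windows of mt-Co1, against 51.1% over its 3 annotated pseudogene copies. Some of the 5′ part was thus copied elsewhere. Further limits come from overlap: mt-Atp8 and mt-Atp6 share 43 bases, mt-Nd4l and mt-Nd4 share 7, and mt-Nd6 overlaps mt-Nd5 by 14 on the opposite strand. Whether counting used strand is not given, so the counts of mt-Nd6 may hold RNA read from the other strand.

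The nuclear subunits of complex I, the NADH dehydrogenase, fell in 17 of 38 genes and rose in 1, with a median log2 fold change of -0.19. Of all tested genes 25.2% fell and 24.8% rose. Core subunits, which carry out electron transfer and proton pumping, fell in 3 of 7 nuclear genes, and accessory subunits in 14 of 29. The rest of the 38 are the gene copies Ndufb4b and Ndufb4c, the latter typed as a processed pseudogene in GENCODE. The count of falls over the 38 genes was 7 without doxycycline mouse 1, 9 without doxycycline mouse 2, 11 without untreated mouse 1 and 9 without untreated mouse 2. Over all tested genes, those fits gave falls for 2715 of 13276, 2947 of 13266, 2621 of 13387 and 2452 of 13389. Without doxycycline mouse 1 the complex I count was thus not above the background, and without doxycycline mouse 2 it was near it. The 4 with the smallest p were accessory. Ndufb6, of the membrane arm, had 63.6, 58.5 and 64.1 CPM in doxycycline mice, against 80.7, 80.9 and 75.8 CPM in untreated mice (-0.35 ± 0.07, edgeR adjusted p = 0.00381). Ndufs6, a zinc-binding subunit near the NADH-oxidizing module, had 34.0, 32.6 and 36.3 CPM in doxycycline mice, against 43.9, 44.2 and 43.4 CPM in untreated mice (-0.35 ± 0.07, edgeR adjusted p = 0.00436). In both genes the doxycycline mice lay below all untreated mice. Ndufc1 averaged 21.1 ± 0.979 CPM in doxycycline mice and 27.8 ± 0.971 CPM in untreated mice (-0.40 ± 0.08, edgeR adjusted p = 0.00442) and Ndufa5 37.0 ± 3.61 CPM in doxycycline mice and 49.4 ± 1.09 CPM in untreated mice (-0.42 ± 0.09, edgeR adjusted p = 0.00448) (SD, n = 3 each). Ndufa12 had the largest fall of the complex, -0.66 ± 0.19, at only 2.09 ± 0.222 CPM in doxycycline mice and 3.30 ± 0.231 CPM in untreated mice (edgeR adjusted p = 0.0194), a call lost in 4 of 6 fits without 1 mouse (all but doxycycline mouse 3 and untreated mouse 3, edgeR adjusted p of 0.055 to 0.066) and in the first run alone (0.069).

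Ndufv3 was the exception. This small accessory subunit of the NADH-oxidizing module had 75.9, 88.4 and 77.9 CPM in doxycycline mice, against 57.6, 60.5 and 66.2 CPM in untreated mice, a rise of 0.40 ± 0.09 (edgeR adjusted p = 0.0057). The groups did not overlap. It was the only nuclear subunit gene called higher. The next highest log2 fold change, 0.19 ± 0.08 for Cox7a2l, a factor that joins complexes III and IV into supercomplexes, did not pass (edgeR adjusted p = 0.0713), with 126, 144 and 122 CPM in doxycycline mice, against 113, 113 and 118 CPM in untreated mice. Cox7a2l passed in the second run alone, without doxycycline mouse 3 and with quality weights (0.23, 0.24 and 0.17). Cox7a2l shared 17.7% of its windows with a processed pseudogene.

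Complex II oxidizes succinate and is also an enzyme of the TCA cycle, and 3 of its 4 genes fell (1 without untreated mouse 2). Of all tested genes 25.2% fell. Sdha, its flavoprotein, had 371, 364 and 374 CPM in doxycycline mice, against 419, 449 and 435 CPM in untreated mice (-0.23 ± 0.06, edgeR adjusted p = 0.0119). The iron-sulfur subunit Sdhb (-0.24 ± 0.07) and the membrane anchor Sdhc (-0.25 ± 0.06) also fell (edgeR adjusted p = 0.0187 and 0.00995). Sdhb averaged 167 ± 12.3 CPM in doxycycline mice and 198 ± 2.46 CPM in untreated mice, and Sdhc 118 ± 3.31 CPM in doxycycline mice and 140.1 ± 5.31 CPM in untreated mice (SD, n = 3 each). The other anchor, Sdhd, had 2.47, 3.57 and 2.62 CPM in doxycycline mice, against 3.29, 3.89 and 3.86 CPM in untreated mice, and its difference of -0.35 ± 0.21 did not pass (edgeR adjusted p = 0.194). The fall of Sdhb was lost without any of doxycycline mice 1 and 2 and untreated mice 1 and 2 (edgeR adjusted p = 0.065, 0.056, 0.056 and 0.064), and that of Sdha without untreated mouse 2 (0.069).

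Of the 7 tested nuclear subunits of complex III, the cytochrome bc1 complex, 6 fell, against 25.2% of all tested genes. Without untreated mouse 2, 2 fell, against 2452 of all 13389 tested genes. Uqcr10, a small subunit that helps to hold the Rieske protein, had 78.4, 81.3 and 88.7 CPM in doxycycline mice, against 109.9, 107 and 106 CPM in untreated mice (-0.38 ± 0.07, edgeR adjusted p = 0.00252). Uqcrb, which lies at the quinone site, had 32.8, 27.1 and 31.3 CPM in doxycycline mice, against 48.3, 45.03 and 39.8 CPM in untreated mice (-0.55 ± 0.10, edgeR adjusted p = 0.0029). Uqcrfs1, the Rieske iron-sulfur protein, fell by 0.26 ± 0.07 on the log2 scale and Uqcrq by 0.35 ± 0.09 (edgeR adjusted p = 0.0126 and 0.0147), and both calls were lost without untreated mouse 2 (0.052 and 0.055). Uqcrh, the acidic hinge protein, was the gene that did not pass (0.05 ± 0.06, edgeR adjusted p = 0.582). Cyc1, the cytochrome c1 of the same complex, lies outside the naming rule and fell by 0.38 ± 0.06 (edgeR adjusted p = 0.00172). Cycs, the mobile carrier to complex IV, had 7.59, 6.11 and 7.59 CPM in doxycycline mice, against 11.1, 9.10 and 9.85 CPM in untreated mice (-0.50 ± 0.14, edgeR adjusted p = 0.0196). Its call was lost without doxycycline mouse 2 (edgeR adjusted p = 0.054), without untreated mouse 1 (0.075) and without both untreated mouse 3 and doxycycline mouse 2 (0.063).

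In complex IV, cytochrome c oxidase, 6 of 16 tested nuclear genes fell, against 25.2% of all tested genes. Without doxycycline mouse 1, 3 fell, against 2715 of all 13276 tested genes, so the count was then not above the background. Cox7b had the smallest p of all nuclear members. It encodes a small membrane subunit and had 94.5, 95.5 and 106 CPM in doxycycline mice, against 146, 140.2 and 135 CPM in untreated mice (-0.51 ± 0.07, edgeR adjusted p = 0.000754). Ndufa4, first assigned to complex I and now known as a subunit of complex IV, had 156, 154 and 170.4 CPM in doxycycline mice, against 212, 199.95 and 199.2 CPM in untreated mice (-0.35 ± 0.07, edgeR adjusted p = 0.0032). Cox5a averaged 177 ± 17.7 CPM in doxycycline mice and 229 ± 12.9 CPM in untreated mice (-0.37 ± 0.09, edgeR adjusted p = 0.00719, n = 3 each). The groups of these 3 genes did not overlap.

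Several complex IV subunits have a widely used gene and a tissue-restricted isoform, and the widely used genes held most of the counts. Cox4i1 had 311, 341 and 331 CPM in doxycycline mice, against 333, 336 and 354 CPM in untreated mice, and overlapped between groups (-0.06 ± 0.06, edgeR adjusted p = 0.486). Its isoform Cox4i2, best known from lung, had 0.941, 1.98 and 0.805 CPM in doxycycline mice, against 2.45, 3.16 and 3.29 CPM in untreated mice, the largest called fall of any member (-1.25 ± 0.35, edgeR adjusted p = 0.0168). Without doxycycline mouse 1 or 3 that call was lost (edgeR adjusted p = 0.064 and 0.055). The muscle isoform Cox6a2 had a larger log2 difference, -1.82 ± 0.93, that did not pass (edgeR adjusted p = 0.152). It had 0.735, 0.333 and 0.690 CPM in doxycycline mice, against 1.58, 4.31 and 0.233 CPM in untreated mice, and untreated mouse 3 was the lowest of all. Without untreated mouse 3 it passed, at -2.35 (edgeR adjusted p = 0.008), as it did with DESeq2 (adjusted p = 0.045). Its widely used partner Cox6a1 differed by 0.01 ± 0.10 (edgeR adjusted p = 0.915).

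Cox7a1, another muscle isoform, had 1.23, 1.29 and 1.20 CPM in doxycycline mice, against 1.91, 2.11 and 1.90 CPM in untreated mice (-0.67 ± 0.21, edgeR adjusted p = 0.0268). That call was lost in 5 of 6 fits without 1 mouse (all but untreated mouse 3, edgeR adjusted p up to 0.096) and in the first run alone (-0.35, edgeR adjusted p = 0.2798) and with DESeq2 (adjusted p = 0.0697). Cox7a2 (-0.22 ± 0.10), Cox6b1 (-0.08 ± 0.06) and the testis isoform Cox6b2 (-0.45 ± 0.19) did not pass (edgeR adjusted p = 0.113, 0.347 and 0.0815), although Cox6b2 passed without doxycycline mouse 2 (-0.60, edgeR adjusted p = 0.037) and with quality weights (-0.61, limma adjusted p = 0.021). Cox8a, the widely used form of its subunit, fell by 0.25 ± 0.07 (edgeR adjusted p = 0.0163), though not without doxycycline mouse 1 or untreated mouse 1 (0.058 and 0.060). Cox7b2, Cox8c and Ndufa4l2 had 0 counts in every mouse, which allows at most 0.0667 to 0.10 CPM (3 counts), and Cox8b had at most 0.0666 CPM in doxycycline mice and 0 counts in untreated mice. These 4 genes and Uqcr11, at no more than 0.0602 CPM in any mouse, were not tested.

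The ATP synthase had the highest share of falls among the complexes with both kinds of gene apart from complex III, 13 of 17 nuclear genes and none higher. The share over all tested genes was 25.2%. Leaving out doxycycline mouse 1 gave 8 falls, and leaving out untreated mouse 1 or untreated mouse 2 gave 7. Over all tested genes, those fits gave falls for 2715 of 13276, 2621 of 13387 and 2452 of 13389. Atp5b, the catalytic beta subunit and the most abundant nuclear member in TPM (2174 ± 158 in doxycycline mice and 2813 ± 53.6 in untreated mice), had 1677, 1632 and 1941 CPM in doxycycline mice, against 2308, 2303 and 2234 CPM in untreated mice (-0.38 ± 0.08, edgeR adjusted p = 0.00475). Atp5j, a subunit of the peripheral stalk, had 139.8, 127 and 144 CPM in doxycycline mice, against 181, 179 and 172 CPM in untreated mice (-0.37 ± 0.07, edgeR adjusted p = 0.00258). All doxycycline mice lay below all untreated mice for both genes. Atp5e, of the central stalk, averaged 138 ± 10.2 CPM in doxycycline mice and 175 ± 4.43 CPM in untreated mice (-0.34 ± 0.07, edgeR adjusted p = 0.00458), and Atp5k, which helps the enzyme to form dimers, 35.9 ± 1.93 CPM in doxycycline mice and 45.5 ± 1.19 CPM in untreated mice (-0.34 ± 0.07, edgeR adjusted p = 0.0054). The ring that turns with proton flow is made of a c subunit encoded by 3 genes with the same mature protein. Atp5g3, which held most of their counts, had 434, 432 and 456 CPM in doxycycline mice, against 513, 494 and 504 CPM in untreated mice (-0.19 ± 0.06, edgeR adjusted p = 0.0268), a call lost in 5 of 6 fits without 1 mouse (all but doxycycline mouse 3, edgeR adjusted p of 0.057 to 0.080). Atp5g1 fell more, with 14.8, 14.7 and 17.8 CPM in doxycycline mice, against 25.8, 20.3 and 23.0 CPM in untreated mice (-0.55 ± 0.12, edgeR adjusted p = 0.00656). Atp5g2 overlapped between groups at 3.59 ± 0.509 CPM in doxycycline mice and 3.85 ± 0.542 CPM in untreated mice (-0.10 ± 0.19, edgeR adjusted p = 0.679).

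**Figure D3:**
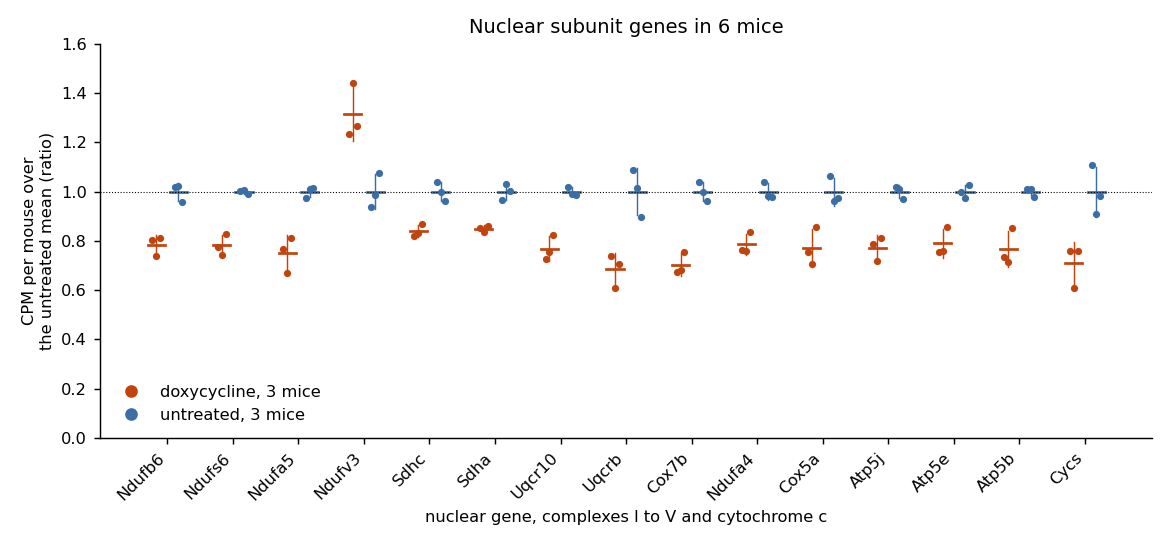
CPM of 15 named nuclear subunit genes in each mouse, divided by the untreated mean of the gene (points are mice, horizontal lines group means, vertical lines SD, n = 3), doxycycline left of untreated. Ndufv3 alone lies above the dotted line at 1 in doxycycline mice; the other 14 lie below it.

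Falls were called for 25.2% of all tested genes. Across the nuclear subunits, 20 of 20 core genes had a negative log2 fold change and 13 fell. Of the tested accessory genes 30 of 55 fell, and of the tested paralogs or gene copies 2 of 7. In the 6 fits without 1 mouse these counts were 5 to 12, 18 to 32 and 0 to 3, lowest for the core genes without untreated mouse 2. Without overlap between groups, 55 nuclear subunit genes were lower and 2 higher, against 30.9% and 30.2% of all tested genes. Within the doxycycline group, mouse 3 was the highest for 55 of the 83 genes, the mouse that was lowest for most mitochondrial genes. Its median log2 difference from the untreated mean was -0.17, against -0.31 and -0.26 in doxycycline mice 1 and 2. The count of falls depended on single mice: it was 26 without doxycycline mouse 1, 28 without untreated mouse 1 and 25 without untreated mouse 2. Over all tested genes, those fits gave falls for 2715 of 13276, 2621 of 13387 and 2452 of 13389. The log2 fold changes of the 46 genes stayed negative in every fit run, and 19 of the 46 were called in all 6 fits without 1 mouse. Those 19 were Atp5b, Atp5e, Atp5g1, Atp5j, Atp5k, Atp5o, Cox5a, Cox7b, Ndufa4, Ndufa5, Ndufb5, Ndufb6, Ndufb8, Ndufc1, Ndufs6, Ndufv1, Sdhc, Uqcr10 and Uqcrb.

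Many of these genes have processed pseudogenes, and levels of some members were low beside those of partner subunits. Cox7c had 41.2 ± 0.58 TPM in doxycycline mice and 40.8 ± 11.4 TPM in untreated mice, against 665 ± 18.7 TPM in doxycycline mice and 727 ± 14.3 TPM in untreated mice for Cox6c, both subunits of complex IV. Uqcr11, of complex III, averaged 0.0534 TPM in doxycycline mice and 0.108 TPM in untreated mice. Uqcr10 of the same complex averaged 439 TPM in doxycycline mice and 566 TPM in untreated mice, and why Uqcr11 was so low was not tested. Of the windows of Cox7c, 27.9% occurred in other annotated transcripts, as did 28.5% of Cycs, 43.4% of Uqcrb and 84.8% of Atp5l, which had 9.31 ± 2.42 TPM in doxycycline mice and 8.85 ± 1.46 TPM in untreated mice. Sdhd was also low, at 5.26 ± 1.13 TPM in doxycycline mice and 6.63 ± 0.677 TPM in untreated mice, with 0% shared, and over 86 nuclear subunit genes the rank correlation of shared percentage and TPM was only -0.07, as a description. Among nuclear subunit genes with under 5% shared windows 28 of 46 tested genes fell and 1 rose, and among the others 18 of 35 fell and 0 rose.

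The 8 assembly factors named Ndufaf build complex I and do not stay in it, with roles known from human cells. Of them 4 fell, 4 did not pass and none rose (median -0.30), and 6 were lower without overlap. Of all tested genes 25.2% fell and 30.9% were lower without overlap. Ndufaf4, needed early in assembly of the peripheral arm, had 38.3, 34.2 and 35.6 CPM in doxycycline mice, against 65.1, 52.7 and 50.1 CPM in untreated mice (-0.64 ± 0.11, edgeR adjusted p = 0.00176). Ndufaf6, which acts before mt-Nd1 is joined, had 7.59, 7.64 and 9.20 CPM in doxycycline mice, against 14.1, 11.02 and 13.3 CPM in untreated mice (-0.65 ± 0.14, edgeR adjusted p = 0.00533). Ndufaf2, a late chaperone, had 13.2, 9.44 and 13.6 CPM in doxycycline mice, against 19.3, 18.4 and 18.6 CPM in untreated mice (-0.64 ± 0.14, edgeR adjusted p = 0.00681). All doxycycline mice were below all untreated mice for the 3 genes. Ndufaf5, which modifies Ndufs7, averaged 13.2 ± 1.02 CPM in doxycycline mice and 16.8 ± 0.542 CPM in untreated mice (-0.34 ± 0.10, edgeR adjusted p = 0.0209). Its call was lost without doxycycline mouse 2 (edgeR adjusted p = 0.063), untreated mouse 2 (0.061) or untreated mouse 3 (0.057), and in the first run alone (-0.23, 0.144). Ndufaf3, the partner of Ndufaf4, was the only factor with a positive value, with 17.7, 16.4 and 18.5 CPM in doxycycline mice, against 14.7, 15.1 and 15.4 CPM in untreated mice (0.21 ± 0.09, edgeR adjusted p = 0.0885). Ndufaf1, Ndufaf7 and Ndufaf8 differed by -0.17 ± 0.10, -0.25 ± 0.13 and -0.21 ± 0.10 (edgeR adjusted p = 0.1695, 0.128 and 0.110). With quality weights in limma, Ndufaf3, Ndufaf7 and Ndufaf8 passed (adjusted p = 0.039, 0.049 and 0.045).

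**Figure D4:**
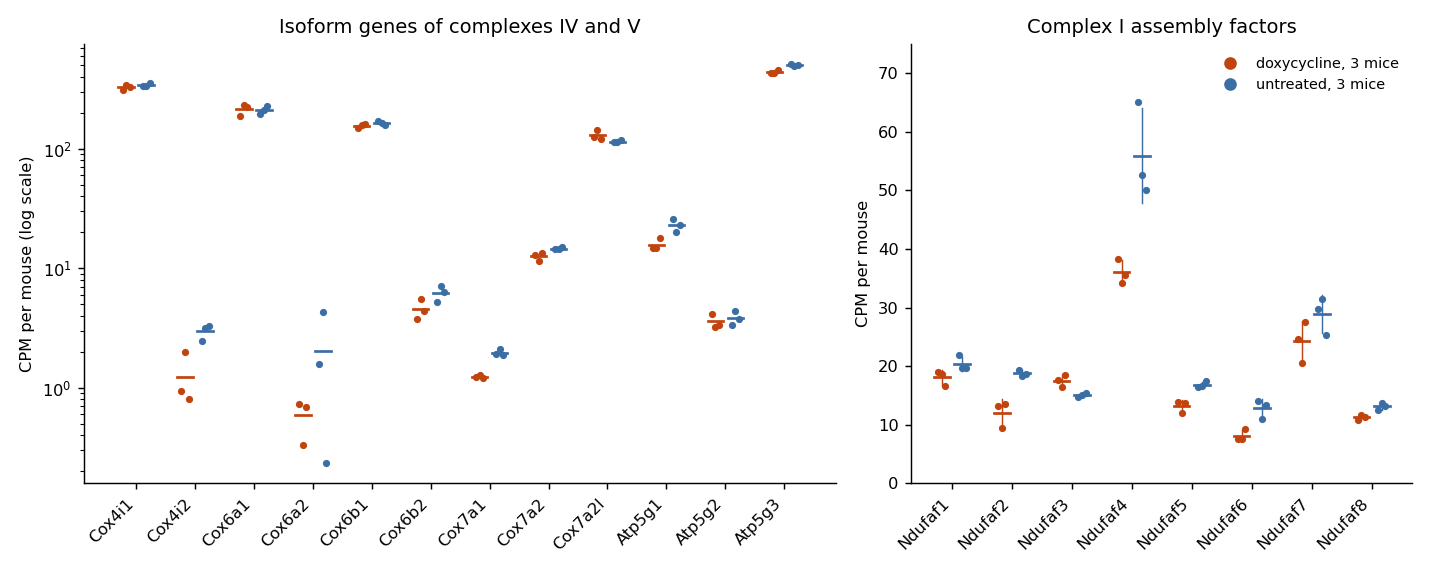
CPM per mouse (points) with group means (horizontal lines) for the isoform genes of complexes IV and V on a log axis, and for the 8 Ndufaf assembly factors on a linear axis with SD as vertical lines; doxycycline left of untreated, 3 mice each. Cox4i2 lies lower in all doxycycline mice, Cox6a2 spreads widely in untreated mice, and the groups are apart for every assembly factor but Ndufaf7.

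Promoters were searched because genes of this kind are known to carry sites for NRF1, GABP and YY1. RefSeq windows from 250 bases before to 50 after the start (GRCm38.p6) were found for 78 of the 96 nuclear members. On both strands, the NRF1 letters GCGCANGCG occurred in 29.5% of them, against 7.03% of the 27025 genes with such a window, and the YY1 letters AAGATGGC in 14.1%, against 3.19%. The ETS letters CCGGAAGT occurred in 6.41% against 4.31%, the E-box CACGTG in 7.69% against 8.09% and the Ikaros core TGGGAA in 19.2% against 28.3%. Split by motif, 11 of 22 tested members with the NRF1 letters fell and 30 of 53 without them, 8 of 11 with the YY1 letters and 33 of 64 without them, and 12 of 15 with the Ikaros core and 29 of 60 without it. The split was 1 of 4 and 40 of 71 for the ETS letters and 5 of 6 and 36 of 69 for the E-box. These are counts of letters in a window and not of bound sites, and the differences between the shares were not tested.

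The windows below are those of Cox7b (smallest p of the nuclear members, chrX:106015450-106015749, plus strand), Ndufs6 (both NRF1 and YY1 letters, chr13:73328433-73328732, minus strand), Cycs (the cytochrome c gene, chr6:50566520-50566819, minus strand), Ndufaf4 (smallest p of the assembly factors, chr4:24897833-24898132, plus strand) and Ndufv3 (the gene that rose, chr17:31519865-31520164, plus strand). They are printed 5′ to 3′ on the gene's strand, and capitals mark matches to the 5 motifs.
Cox7b promoter: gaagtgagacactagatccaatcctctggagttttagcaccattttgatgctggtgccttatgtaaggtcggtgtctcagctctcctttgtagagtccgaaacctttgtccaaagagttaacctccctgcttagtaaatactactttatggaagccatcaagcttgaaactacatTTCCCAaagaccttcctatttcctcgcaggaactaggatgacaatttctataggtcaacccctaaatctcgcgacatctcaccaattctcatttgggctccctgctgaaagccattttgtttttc
Ndufs6 promoter: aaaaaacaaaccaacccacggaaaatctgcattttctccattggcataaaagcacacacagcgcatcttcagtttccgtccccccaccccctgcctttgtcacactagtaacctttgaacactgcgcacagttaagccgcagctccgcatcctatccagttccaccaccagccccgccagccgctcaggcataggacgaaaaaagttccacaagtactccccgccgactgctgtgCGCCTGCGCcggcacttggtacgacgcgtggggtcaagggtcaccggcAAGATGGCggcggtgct
Cycs promoter: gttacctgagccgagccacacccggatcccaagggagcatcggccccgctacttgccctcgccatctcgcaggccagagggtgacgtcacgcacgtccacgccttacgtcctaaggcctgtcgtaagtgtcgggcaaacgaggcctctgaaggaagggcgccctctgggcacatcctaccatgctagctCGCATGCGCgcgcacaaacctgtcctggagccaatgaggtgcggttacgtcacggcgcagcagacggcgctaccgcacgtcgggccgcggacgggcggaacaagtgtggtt
Ndufaf4 promoter: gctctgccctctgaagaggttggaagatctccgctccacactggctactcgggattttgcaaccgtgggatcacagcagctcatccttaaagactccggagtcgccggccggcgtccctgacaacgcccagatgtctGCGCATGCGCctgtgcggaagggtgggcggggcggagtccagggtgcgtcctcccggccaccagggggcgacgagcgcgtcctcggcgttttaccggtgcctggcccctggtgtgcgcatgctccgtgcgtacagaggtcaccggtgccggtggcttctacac
Ndufv3 promoter: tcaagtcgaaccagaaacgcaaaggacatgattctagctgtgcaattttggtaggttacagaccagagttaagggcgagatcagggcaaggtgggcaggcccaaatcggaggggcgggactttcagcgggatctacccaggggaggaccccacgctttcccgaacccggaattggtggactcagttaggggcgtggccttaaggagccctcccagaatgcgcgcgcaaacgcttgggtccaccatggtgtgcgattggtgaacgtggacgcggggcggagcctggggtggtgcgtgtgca
Cox7b held 1 match, the reverse complement of the Ikaros core at bases 176 to 181. Ndufs6 held an NRF1 match at 236 to 244 and a YY1 match at 284 to 291, just after the start. Cycs held 1 NRF1 match at 190 to 198. In Ndufaf4 the letters at 138 to 147 match NRF1 on both strands, so its 2 matches overlap. Ndufv3 held 0 matches.

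Genes that build, feed or control the chain were read from 10 lists. Over all tested genes, 25.2% fell and 24.8% rose, and the counts for complex I and IV factors below lie near or under these shares. Of 8 further complex I factors 3 fell (Acad9, Ecsit and Nubpl) and 2 rose, and of 19 tested complex IV factors 3 fell and 3 rose. Acad9, a partner of Ecsit in the membrane-arm assembly complex, averaged 51.4 ± 3.45 CPM in doxycycline mice and 72.3 ± 0.255 CPM in untreated mice (-0.49 ± 0.07, edgeR adjusted p = 0.000903), and Ecsit 31.8 ± 1.63 CPM in doxycycline mice and 42.3 ± 2.94 CPM in untreated mice (-0.41 ± 0.08, edgeR adjusted p = 0.00397). Cmc2 (0.58 ± 0.09) and Cox14 (0.51 ± 0.09), both of cytochrome c oxidase assembly, rose and Coa6 fell (-0.47 ± 0.09), with edgeR adjusted p of 0.00133, 0.00258 and 0.00266. For complex III, 3 of 6 fell (Uqcc1, Uqcc2 and Bcs1l, the loader of the Rieske protein) and 1 rose. For complex II, 0 of 4 passed in edgeR and 0 in DESeq2. Of these, 1 (Sdhaf3, -0.48) had an unadjusted edgeR p under 0.05, and it was called lower with limma-voom. For the ATP synthase 3 of 4 fell, among them its inhibitor Atpif1 (-0.35 ± 0.06, edgeR adjusted p = 0.00241). In the fits without 1 mouse the counts of falls were 3 for the further complex I factors, 3 for complex III, 2 to 4 for complex IV and 1 to 2 for the ATP synthase. The rises were 1 to 2, 0, 2 to 3 and 0.

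In the list for transcription and replication of mitochondrial DNA, 5 of 13 fell and 2 rose, not far from the 25.2% and 24.8% of all tested genes. Twnk, the replicative helicase, had 27.8, 27.1 and 28.7 CPM in doxycycline mice, against 44.6, 48.5 and 45.5 CPM in untreated mice (-0.73 ± 0.07, edgeR adjusted p = 0.000192). Tefm, the elongation factor of the mitochondrial polymerase, fell by 0.64 ± 0.11 and Polg, the replicative polymerase, rose by 0.46 ± 0.09 (edgeR adjusted p = 0.00184 and 0.00282). Tfam, which packages the DNA and starts transcription, averaged 119 ± 3.98 CPM in doxycycline mice and 121 ± 2.61 CPM in untreated mice (-0.03 ± 0.06, edgeR adjusted p = 0.740). Polrmt, the mitochondrial RNA polymerase, fell by 0.40 ± 0.11 and Tfb1m by 0.49 ± 0.13 (edgeR adjusted p = 0.0140 and 0.0122). Tfb2m did not pass (-0.13 ± 0.13, edgeR adjusted p = 0.429). In the list for processing, stability and decay of mitochondrial RNA, 14 of 16 fell and 0 rose (median -0.40), well above the 25.2% of all tested genes that fell, and 11 to 14 fell in the fits without 1 mouse. Lrpprc, which with Slirp stabilizes mitochondrial messenger RNA, had 158, 149 and 173 CPM in doxycycline mice, against 264, 248 and 237 CPM in untreated mice (-0.64 ± 0.08, edgeR adjusted p = 0.000384). Fastkd1 fell by 0.72 ± 0.10 and the exonuclease Rexo2 by 0.75 ± 0.11 (edgeR adjusted p = 0.000696 and 0.00087). In the same samples all 13 mitochondrial messenger RNAs were higher.

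Of 8 tested regulators 2 fell and 3 rose, against 25.2% and 24.8% of all tested genes, which for so few genes is near the background. Without untreated mouse 1 or untreated mouse 2, 1 rose. Pprc1, a coactivator of the PGC-1 family, had 78.7, 66.1 and 73.5 CPM in doxycycline mice, against 152, 130.3 and 139 CPM in untreated mice (-0.95 ± 0.09, edgeR adjusted p = 0.000134). Ppargc1b of the same family fell by 0.68 ± 0.13 (edgeR adjusted p = 0.00324), and Ppargc1a had 0 counts. Gabpb2, a subunit of the ETS-type factor GABP, averaged 317 ± 11.3 CPM in doxycycline mice and 256 ± 1.32 CPM in untreated mice (0.31 ± 0.06, edgeR adjusted p = 0.00332). Of 13 TCA cycle genes 10 fell and 0 rose, all 13 with negative values (median -0.23). Leaving out doxycycline mouse 2 gave 6 falls, and leaving out doxycycline mouse 1, untreated mouse 1 or untreated mouse 2 gave 5. Falls over all tested genes in those fits were 2947 of 13266, 2715 of 13276, 2621 of 13387 and 2452 of 13389. Fh1, fumarase, averaged 119 ± 10.97 CPM in doxycycline mice and 192 ± 12.5 CPM in untreated mice (-0.69 ± 0.09, edgeR adjusted p = 0.000439), Suclg2 13.7 ± 2.82 CPM in doxycycline mice and 23.1 ± 0.224 CPM in untreated mice (-0.75 ± 0.14, edgeR adjusted p = 0.00302), and Idh3a 133 ± 12.6 CPM in doxycycline mice and 189 ± 21.0 CPM in untreated mice (-0.50 ± 0.10, edgeR adjusted p = 0.00365). For coenzyme Q synthesis 9 of 13 fell and 2 rose (median -0.41), with 8 to 9 falls and 0 to 1 rises in the fits without 1 mouse. Coq4 fell by 1.05 ± 0.13, Coq3 by 0.65 ± 0.10 and Coq2, the prenyl transferase of the pathway, by 0.46 ± 0.07 (edgeR adjusted p = 0.000518, 0.00111 and 0.00133).

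**Figure D5:**
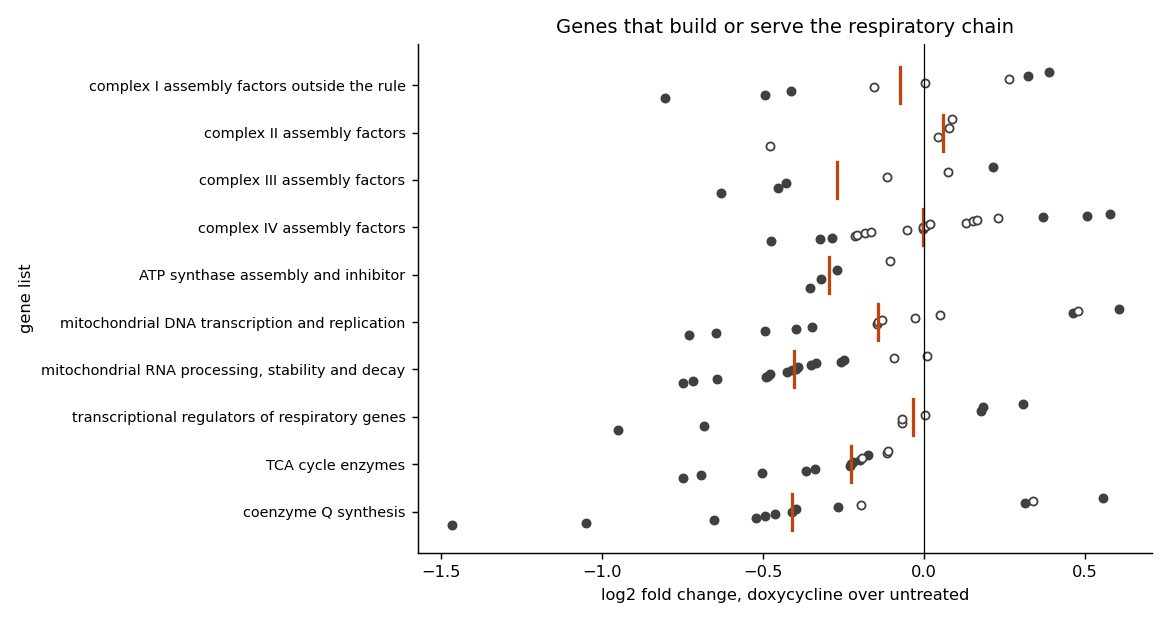
Log2 fold change (doxycycline over untreated) of each tested gene in the 10 lists around the respiratory chain; filled points passed an adjusted p of 0.05 in edgeR and the vertical bar is the median of the list. The lists for mitochondrial RNA processing (median -0.40), TCA cycle (median -0.23) and coenzyme Q synthesis (median -0.41) lie mostly left of 0, and the points for complex IV assembly lie on both sides of 0.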

How the data were processed

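RNA of T-ALL cells from 3 doxycycline and 3 untreated mice was counted per gene. The deposited counts are whole reads per Entrez gene, made by the authors with CASAVA 1.8.1 and featureCounts on mm10, per the submitters' processing notes; the aligner, strand setting and treatment of reads with several matches are, in the sources used here, not given. The 2 runs of each mouse were summed. Genes passing filterByExpr (13134) were tested with edgeR 4.0.16 (R 4.3.3) by the quasi-likelihood F test with TMM scaling, a robust fit and Benjamini-Hochberg adjustment at 0.05. Printed CPM are TMM-scaled, and TPM were computed from the counts and deposited gene lengths. An exact permutation test of 3 against 3 mice cannot go below 0.1. The biological coefficient of variation was 13.9%.

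Entrez identifiers were given symbols for 93.1% of rows, through RefSeq or, where RefSeq had none, GENCODE. Mitochondrial genes took GENCODE names, and 5 pseudogene rows with matching names were left out. The 50-base windows of each member were searched in all other GENCODE transcripts. Members and lists were chosen with earlier results of these data known. Named were all mitochondrial genes and assembly factors, up to 4 nuclear genes per complex with the smallest p, the isoform sets, nuclear genes called in the rarer direction, the 3 largest rises and falls, and up to 3 genes per list. Ndufa12, Uqcrh, Cyc1, Tfam, Polrmt, Tfb1m, Tfb2m, Slirp and the ribosomal RNAs were named after their values were seen. On data simulated from these samples (13134 genes), edgeR recovered 48.5% of 1.5-fold, 79.1% of 2-fold and 95.8% of 4-fold changes, with 8.72% of calls false. Far fewer genes were changed in the simulated sets than the 50.0% called here, so these rates need not hold for the real data. Alternatives used DESeq2 1.42.0 and limma 3.58.1, other scalings and filters, each run alone, a replicate block and fits without 1 mouse. Some single-gene values are not reported here.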

Additional observations from a re-analysis of the deposited data

How the results depend on the processing

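The number of nuclear subunit genes called lower, 46, was 25 to 45 in the fits without 1 mouse, among them 26 without doxycycline mouse 1, 28 without untreated mouse 1 and 25 without untreated mouse 2. Those named fits called 2715 of 13276, 2621 of 13387 and 2452 of 13389 of all tested genes lower. The number of nuclear subunit genes called higher, 1, was 1 to 2 in the fits without 1 mouse, and 2 with limma-voom quality weights and in run 2 alone. The number of assembly factors called higher, 0, was 1 with quality weights. The other fits kept these counts within 1.5 times, with 12 to 13 mitochondrial genes higher and medians of 0.57 to 0.74 for the mitochondrial and -0.28 to -0.22 for the nuclear subunit genes. Single genes were also counted once per alternative fit, so each gene enters many times. Of these gene-and-fit results, 2632 kept their side of the threshold, 135 lost a call, 32 gained one and 0 changed sign with a call. With a replicate block, 41 nuclear subunits and 4 assembly factors were lower and 13 mitochondrial genes higher, and Cox7a1 had -0.67 with an edgeR adjusted p of 0.0504. Same-numbered mice had correlated deviations of 0.20, -0.02 and -0.13, so the numbers were not taken as pairs. Most nuclear differences here were smaller than 1.5-fold. The recovery rates of the simulated sets need not hold for the real data, so they do not show how many such differences were missed. A gene that did not pass is not shown to be unchanged.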

Other observations

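The 5 pseudogene rows left out of the members held counts in every mouse. Ndufs5-ps had 1339, 1709 and 1879 counts in doxycycline mice, against 1343, 1535 and 1455 counts in untreated mice. Ndufs6b had 772, 995 and 1056 counts, against 881, 984 and 871 counts, and Uqcrh-ps1 had 802, 1100 and 1047 counts, against 736, 742 and 724 counts. Atp5c1-ps and Ndufa11b had 315 to 926 counts in doxycycline mice and 336 to 734 counts in untreated mice. These are counts per mouse, not scaled for depth.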
